A study of Mus musculus with 9 samples.

Results

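Dual-specificity MAP kinase phosphatases were followed through 8 genes, Dusp1, Dusp2, Dusp4, Dusp5, Dusp6, Dusp7, Dusp10 and Dusp16, in mouse bone marrow-derived dendritic cells exposed to lysophosphatidic acid (LPA). The genes were chosen by name, and each was read from the row of the count table whose transcript identifiers belong to it, taking the row with most counts where a symbol had several. They make up 8 of the 38887 rows, and all 8 were among the 14363 rows with enough counts to be tested. Bone marrow-derived dendritic cells are antigen-presenting cells grown in culture from marrow precursors, and LPA is a small lipid mediator in plasma and tissue that cells sense with G protein-coupled receptors. RNA-seq covered 3 groups of 3 libraries: untreated cells, cells treated with LPA for 2 h and cells treated with LPA for 6 h. The labels give no strain, genotype, LPA dose, vehicle or time point for the untreated cells, and do not tie a replicate to its own animal or culture. The p-values below therefore describe the spread among the sequenced libraries alone, part or all of which may be technical.

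MAP kinases (ERK, JNK and p38) are switched on when both a threonine and a tyrosine in their activation loop are phosphorylated, and these phosphatases remove both phosphates. Many of the genes are themselves transcribed in response to MAP kinase or cAMP signalling, so that the enzymes act as feedback brakes, and in myeloid cells they are known for limiting cytokine production after Toll-like receptor stimulation. The family falls into 3 classes: inducible nuclear enzymes (Dusp1, Dusp2, Dusp4, Dusp5), cytoplasmic enzymes that act on ERK (Dusp6, Dusp7 and, outside the 8, Dusp9), and enzymes that prefer JNK and p38 (Dusp10, Dusp16 and, outside the 8, Dusp8).

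Library totals ran from 29628817 to 84596899 counts. The 3 groups separated on the first principal component of log2 CPM (counts scaled to a common library total), which held 46.2% of the variance, but the 2 h libraries were spread more widely than the others. Replicate 2 at 2 h, also the deepest library, stood at 9.74 on that component, against -4.67 and -12.4 for replicates 1 and 3, with untreated libraries at or below -34.5 and 6 h libraries at or above 35.7. For the 8 genes, Dusp8 and Dusp9, each fold change at 2 h is therefore also given without it. The fold changes of other genes at 2 h are given only with it. Of 9 dendritic cell markers 8 were tested. Itgax had 1320 to 1387 CPM untreated, 1248 to 1363 CPM at 2 h and 1041 to 1096 CPM at 6 h. Cd74 lay between 3113 and 3958 CPM in every library, while Cd209a did not exceed 0.0453 CPM. The list summed to 5950 to 6870 CPM untreated, 6170 to 6820 CPM at 2 h and 5560 to 6040 CPM at 6 h, but its members moved apart: 1 was called higher and 2 lower at 2 h, and 1 higher and 3 lower at 6 h, both against untreated cells. Ccr7 had 413 to 491 CPM at 6 h against 307 to 366 CPM untreated, and Batf3 7.32 to 8.78 CPM at 6 h against 12.3 to 15.1 CPM untreated. Macrophage markers were present too, summing to 1440 to 1460 CPM in untreated libraries, 1430 to 1530 CPM at 2 h and 1450 to 1500 CPM at 6 h. Of these 7 markers 0 were called higher and 2 lower at 2 h, and 2 higher and 4 lower at 6 h, with Mertk at 95.5 to 108.5 CPM at 6 h against 55.1 to 69.3 CPM untreated and Fcgr1 at 12.8 to 14.9 CPM at 6 h against 30.2 to 34.8 CPM untreated. These markers were picked to show the spread after their values were seen. The marker lists of B cells, mast cells and erythroid cells each stayed at or below 0.272 CPM in sum, and the granulocyte list at or below 6.20 CPM. Markers of T and NK cells summed to 1.39 to 1.53 CPM untreated, 0.673 to 1.14 CPM at 2 h and 0.343 to 0.508 CPM at 6 h, with Cd3g and Ncr1 at 0 in all libraries, so that the sum rests mostly on Cd8a and Klrb1c. Of the stromal markers Pdgfra had 1.06 to 1.45 CPM at 6 h against 0.233 to 0.567 CPM untreated, while Col1a1, Col1a2 and Col3a1 each stayed at or below 0.151 CPM. The part of these marker changes in the results was not tested. In bulk RNA a change in how many cells express a gene cannot be told apart from a change in the amount per cell.

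Promoter sequences were available for 7 of the 8 genes and for Dusp8, from RefSeq on GRCm38.p6, as windows of 300 bases from 250 before to 50 after the annotated start. The 250 bases before the start are shown for Dusp1, Dusp8, Dusp5 and Dusp6. Dusp1 had the highest level after LPA, and Dusp8 the largest change among the JNK and p38 phosphatases. Dusp5 is an induced nuclear phosphatase specific for ERK, and Dusp6 the ERK phosphatase with the largest fall. Capitals mark the cAMP response element (CRE) core TGACG on either strand, the full palindromic element TGACGTCA, which holds the core on both strands, and the CArG box bound by serum response factor.
Dusp1, chr17:26508473-26508722, minus strand: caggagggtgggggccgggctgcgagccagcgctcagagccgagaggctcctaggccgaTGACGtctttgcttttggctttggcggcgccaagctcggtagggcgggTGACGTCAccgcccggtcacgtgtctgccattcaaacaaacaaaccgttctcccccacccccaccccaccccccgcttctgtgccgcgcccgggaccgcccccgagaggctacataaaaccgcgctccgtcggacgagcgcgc
Dusp8, chr7:142095285-142095534, minus strand: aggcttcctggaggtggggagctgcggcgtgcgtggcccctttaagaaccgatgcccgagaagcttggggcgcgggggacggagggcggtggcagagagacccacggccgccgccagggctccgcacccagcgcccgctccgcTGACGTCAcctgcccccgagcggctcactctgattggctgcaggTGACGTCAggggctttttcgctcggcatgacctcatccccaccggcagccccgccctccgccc
Dusp5, chr19:53528895-53529144, plus strand: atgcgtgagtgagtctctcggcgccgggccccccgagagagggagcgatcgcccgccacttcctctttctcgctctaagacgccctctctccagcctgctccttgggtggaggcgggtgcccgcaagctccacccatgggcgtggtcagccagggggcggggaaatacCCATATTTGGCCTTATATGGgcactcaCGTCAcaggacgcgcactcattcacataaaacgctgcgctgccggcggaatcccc
Dusp6, chr10:99262981-99263230, plus strand: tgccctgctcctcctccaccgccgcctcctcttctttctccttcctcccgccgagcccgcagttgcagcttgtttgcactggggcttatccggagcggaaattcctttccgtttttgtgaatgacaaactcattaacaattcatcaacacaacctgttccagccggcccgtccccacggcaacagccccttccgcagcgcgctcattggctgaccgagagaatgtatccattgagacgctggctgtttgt
The full element was found once in the Dusp1 window, at -143, and at -107 and -63 in the Dusp8 window, counting from -1 just before the RefSeq start. Of all 32851 windows in the table, 1.79% held it on either strand. The shorter core was found in 20.8% of all windows and in those of Dusp1, Dusp2, Dusp5, Dusp16 and Dusp8. The Dusp5 window held a pair of adjoining CArG boxes at -82 and -72, and 1.63% of all windows held at least 1. The E-box CACGTG (7.15% of all windows) was found in the windows of Dusp1 and Dusp2, and the hypoxia response core ACGTG, which is part of the E-box (19.6%), in those of Dusp1, Dusp2 and Dusp5. The AP-1 site TGANTCA (7.81%), the TATA box TATAAA (13.6%) and the NF-kappaB site (4.51%) were found in none of the 8 windows, and the windows of Dusp6, Dusp7 and Dusp10 held no match of any motif searched. RefSeq and GENCODE M21, to which the counted transcripts were matched, place the starts of Dusp2, Dusp6 and Dusp7 at the same base. The RefSeq starts of Dusp1, Dusp5, Dusp8 and Dusp10 lie 47, 36, 559 and 21079 bases inside the GENCODE gene. The 8 windows held 57.3 to 78.7% G and C, against a median of 52.7% over all windows. The shares over all windows do not allow for this difference. These matches describe letters only, since no binding was measured.

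At 2 h of LPA the 8 genes moved in opposite directions. Dusp1, Dusp5, Dusp10 and Dusp16 rose, Dusp4, Dusp6 and Dusp7 fell, and Dusp2 did not pass the test. All genes of the JNK and p38 class rose, Dusp8 with them. Both cytoplasmic ERK phosphatases among the 8 fell, while Dusp9, of that class but outside the 8, rose (log2 fold change 0.62). The nuclear class held rises (Dusp1, Dusp5) and a fall (Dusp4). The 7 calls stand against 38.5% of all 14363 rows called. The 4 rises stand against 19.3% of rows called higher, and the 3 falls against 19.2% called lower (edgeR's quasi-likelihood test, Benjamini-Hochberg adjusted p under 0.05). In 7 of the 8 genes every 2 h library lay outside the range of the untreated libraries, against 48.2% of all rows. The median log2 fold change of the 8 was 0.197, and that of all rows -0.000988. These calls were the same without replicate 2 at 2 h, where the log2 fold changes against untreated cells were 1.76 for Dusp1, -0.41 for Dusp2, 1.08 for Dusp5, 1.69 for Dusp10, 0.89 for Dusp16, 3.01 for Dusp8 and 0.58 for Dusp9. Replicate 2 was the highest 2 h library for Dusp4, Dusp6 and Dusp7, so leaving it out deepened their falls and cannot check them. The call of Dusp4 was lost when some other libraries were left out, as given with that gene. The values of Dusp4, Dusp6 and Dusp7 without replicate 2 at 2 h stand with each gene.

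At 6 h the rises were smaller except for Dusp10, and the falls no longer passed. Dusp1, Dusp5, Dusp10 and Dusp16 were still higher than in untreated cells, against 52% of all rows called and 26.4% called higher. None of the 8 was called lower, against 25.7% of all rows, whether by edgeR, DESeq2 or limma-voom, and 0 of the 8 were lower at an unadjusted p under 0.05 in edgeR's test. With the replicate number as a block 1 was called lower (Dusp2), and with the 6 libraries of the comparison alone also 1 (Dusp6). The 6 h and 2 h comparisons share the untreated libraries, so their values are given side by side and not counted as separate evidence. Tested directly, 6 h against 2 h, Dusp4, Dusp6 and Dusp7 were higher at 6 h (24.3% of all rows) and Dusp1, Dusp5 and Dusp16 lower (24.4% of all rows), while Dusp2 and Dusp10 were not called. Over all rows 48.7% were called in this comparison. Without replicate 1 at 2 h, 1 of the 3 genes was still called higher at 6 h, which was Dusp7. In 6 of the 8 genes the libraries did not overlap at 6 h against untreated (63% of all rows), and in 6 at 6 h against 2 h (58.9%). The median log2 fold change of the 8 was 0.211 at 6 h against untreated, where that of all rows was 0.0073, and 0.0998 at 6 h against 2 h, where that of all rows was -0.00635.

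**Figure D1:**
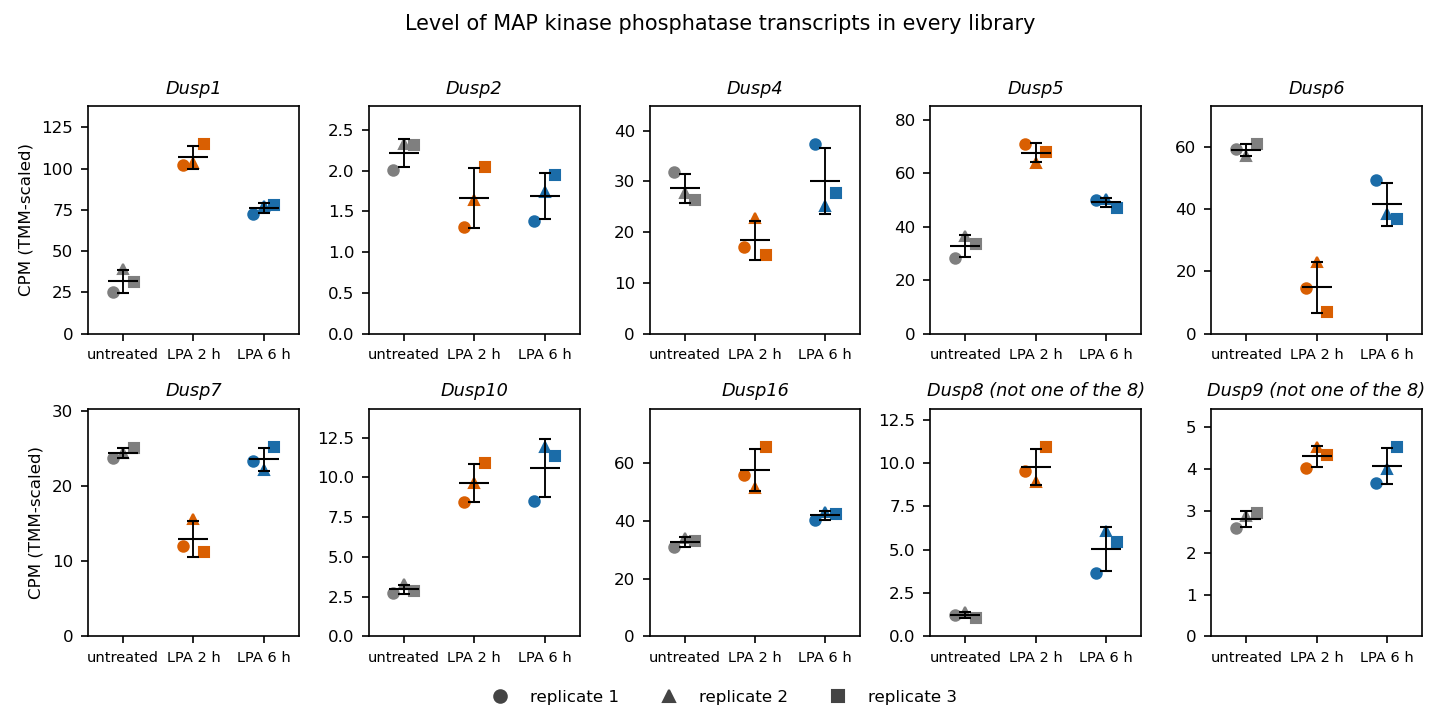
Level of each gene in every library, as TMM-scaled CPM on a linear axis starting at 0. Symbols are replicates, the wide bar is the group mean and the whiskers are 1 SD (n = 3). Dusp1 and Dusp5 peak at 2 h and stay above untreated at 6 h, Dusp6 and Dusp7 dip at 2 h, and replicate 2 is the highest 2 h library for Dusp4, Dusp6 and Dusp7.

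Dusp1 encodes the best studied nuclear phosphatase, which acts on p38 and JNK and also on ERK, and lies on chromosome 17 (26505590 to 26508519, minus strand, GRCm38). Untreated libraries had 25.05, 38.9 and 31.6 CPM, the 2 h libraries 102, 103 and 115 CPM, and the 6 h libraries 72.4, 77.5 and 77.8 CPM. The 3 groups did not overlap, and every LPA library was above every untreated one. The log2 fold change at 2 h was 1.74 ± 0.14 (SE, adjusted p = 1.92e-05, edgeR), which is 3.34-fold, and at 6 h 1.25 ± 0.14 (adjusted p = 8.15e-05, edgeR). Of the 2 h rise in mean CPM, 58.7% was left at 6 h, and the fall between the times was -0.49 ± 0.13 (adjusted p = 0.0135, edgeR). That last call was lost without replicate 3 at 2 h, the highest Dusp1 library (adjusted p = 0.0602). Dusp1 had 2 rows in the table, and this is the one with most counts.

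Dusp5, a nuclear phosphatase specific for ERK, lies on chromosome 19 (53529109 to 53542431, plus strand). Its levels were 28.4, 36.4 and 33.5 CPM untreated, 71.0, 64.0 and 68.2 CPM at 2 h and 49.96, 50.3 and 47.2 CPM at 6 h. The groups did not overlap at any of the 3 stages. It rose by 1.04 ± 0.08 on the log2 scale at 2 h (adjusted p = 1.38e-06, edgeR) and by 0.58 ± 0.08 at 6 h (adjusted p = 7.68e-05, edgeR), and was lower at 6 h than at 2 h by a log2 fold change of -0.46 ± 0.08 (adjusted p = 5.39e-04, edgeR). An antisense gene, AC137853.2, overlaps its start, and the libraries do not keep the strand.

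Dusp4 encodes a nuclear phosphatase of ERK and JNK (chromosome 8, 34807297 to 34819894, plus strand). It had 31.9, 27.8 and 26.3 CPM untreated, 17.0, 22.8 and 15.5 CPM at 2 h and 37.4, 25.1 and 27.8 CPM at 6 h. Every 2 h library was below every library of the other groups, while the 6 h libraries spanned the untreated range. The log2 fold change at 2 h was -0.62 ± 0.19 (adjusted p = 0.0304, edgeR), a call lost without untreated replicate 1 or 2 or without 2 h replicate 1 or 3 (adjusted p up to 0.0954). Without replicate 2 at 2 h it was -0.81 ± 0.18, and without replicate 3 -0.52. At 6 h the value was 0.06 ± 0.18, with a 95% interval of -0.37 to 0.49, and 6 h against 2 h gave 0.69 ± 0.19 (adjusted p = 0.0167, edgeR), a call lost without replicate 1 (adjusted p = 0.0570) or replicate 3 (adjusted p = 0.0657) at 2 h.

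Dusp2, a nuclear phosphatase first known from activated lymphocytes (chromosome 2, 127336159 to 127338376, plus strand), was the nuclear gene of lowest level. It had 2.01, 2.33 and 2.31 CPM untreated, 1.32, 1.64 and 2.04 CPM at 2 h and 1.38, 1.74 and 1.95 CPM at 6 h. The 2 h range touched the untreated range, and the 6 h range lay just below it. The log2 fold change was -0.42 at 2 h (95% interval -0.80 to -0.05 before adjustment, adjusted p = 0.0730, edgeR) and -0.37 at 6 h (-0.75 to 0.01, adjusted p = 0.0955, edgeR). At 2 h it passed without replicate 3 at 2 h, the highest of that group (adjusted p = 0.0216, edgeR). With the replicate number as a block, a pairing the labels do not give, it passed at 2 h (-0.43, adjusted p = 0.01995, edgeR). With this block it also passed at 6 h (-0.40, adjusted p = 0.0249, edgeR). The value between the times was 0.05 ± 0.18 (-0.34 to 0.44).

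Dusp6, the cytoplasmic phosphatase that is specific for ERK and is known as a transcriptional target of ERK signalling, gave the largest fall of the 8 genes (chromosome 10, 99263231 to 99267488, plus strand). It had 59.4, 57.1 and 60.9 CPM untreated, 14.8, 23.0 and 6.85 CPM at 2 h and 49.4, 38.4 and 36.8 CPM at 6 h. The untreated libraries were within 1.07-fold of each other, whereas the highest 2 h library held 3.36 times the lowest, and the 3 groups did not overlap. At 2 h the log2 fold change was -1.96 ± 0.39 (adjusted p = 0.00788, edgeR), so the mean was 3.89-fold lower in the fit, while with each library left out it ran from -2.43 ± 0.33 without replicate 2 at 2 h to -1.64 ± 0.21 without replicate 3 at 2 h. At 6 h it was -0.52 ± 0.37 (95% interval -1.41 to 0.37, adjusted p = 0.286, edgeR). This did not pass although all 6 h libraries were below all untreated ones, and it passed with the 6 libraries of that comparison alone (-0.53 ± 0.11, adjusted p = 0.00743, edgeR), where the spread of the 2 h libraries does not enter. At 6 h it was higher than at 2 h by 1.44 ± 0.39 (adjusted p = 0.0210, edgeR), a call lost without 2 h replicate 1 (adjusted p = 0.0636), without 6 h replicate 1 (adjusted p = 0.0583) and with only these 6 libraries (adjusted p = 0.0623).

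Dusp7, a close relative of Dusp6 that also acts on ERK in the cytoplasm (chromosome 9, 106368632 to 106375724, plus strand), fell as well, with less spread. Untreated libraries had 23.7, 24.4 and 25.01 CPM, the 2 h libraries 12.0, 15.6 and 11.3 CPM and the 6 h libraries 23.3, 22.1 and 25.2 CPM. The 2 h libraries were apart from both other groups, whose ranges overlapped. The log2 fold change was -0.90 ± 0.11 at 2 h (adjusted p = 5.68e-05, edgeR) and ran from -1.07 ± 0.07 without replicate 2 at 2 h to -0.81 ± 0.10 without replicate 3 at 2 h. The comparison of 6 h against 2 h gave 0.85 ± 0.11 (adjusted p = 1.14e-04, edgeR). At 6 h against untreated it was -0.05, with a 95% interval of -0.28 to 0.18. Dusp9, the remaining cytoplasmic ERK phosphatase (chromosome X), did not share this dip: it averaged 2.80 ± 0.189 CPM untreated, 4.31 ± 0.252 CPM at 2 h and 4.07 ± 0.431 CPM at 6 h (SD, n = 3 each), with log2 fold changes of 0.62 ± 0.11 and 0.55 ± 0.11 that both passed.

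In the class that prefers JNK and p38, Dusp10 (chromosome 1, 184013302 to 184075636, plus strand) had 2.75, 3.28 and 2.88 CPM untreated, 8.48, 9.64 and 10.9 CPM at 2 h and 8.54, 11.9 and 11.4 CPM at 6 h. All LPA libraries were above all untreated ones, and those of 2 h and 6 h overlapped. It rose by 1.69 ± 0.14 at 2 h (adjusted p = 2.45e-06, edgeR) and by 1.84 ± 0.14 at 6 h (adjusted p = 8.88e-07, edgeR), and between the times it differed by 0.15 (95% interval -0.13 to 0.42). It was the single member with a higher mean at 6 h than at 2 h among the 4 that rose. The gene 1700056E22Rik overlaps it on the other strand, with 143 counts over all 9 libraries.

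Dusp16, a phosphatase of JNK that shuttles between nucleus and cytoplasm (chromosome 6, 134715468 to 134792625, minus strand, overlapped by the antisense gene Gm36328), had 30.8, 34.2 and 33.04 CPM untreated, 55.8, 51.5 and 65.6 CPM at 2 h and 40.3, 43.2 and 42.3 CPM at 6 h. The 3 groups did not overlap. Its log2 fold change was 0.82 ± 0.08 at 2 h (adjusted p = 1.01e-05, edgeR), 0.36 ± 0.08 at 6 h (adjusted p = 0.00255, edgeR) and -0.45 ± 0.08 between the times (adjusted p = 6.46e-04, edgeR). Dusp8, which also acts on JNK and p38, changed more against untreated cells than any of the 8, at both times (chromosome 7, 142079490 to 142095843, minus strand). It had 1.25, 1.44 and 1.07 CPM untreated, 9.51, 8.88 and 10.9 CPM at 2 h and 3.65, 6.06 and 5.42 CPM at 6 h. This was a 7.70-fold rise at 2 h (log2 2.95 ± 0.18, adjusted p = 4.42e-07, edgeR) and a 4.05-fold rise at 6 h (2.02 ± 0.19), and 6 h against 2 h gave -0.93 ± 0.16 (adjusted p = 6.24e-04, edgeR).

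**Figure D2:**
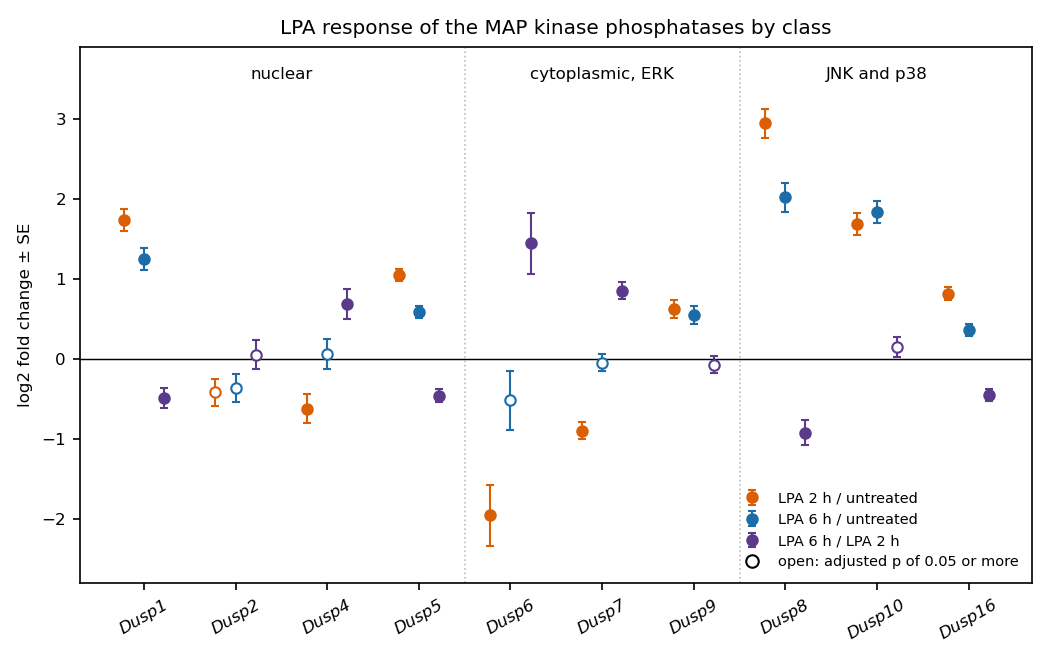
Log2 fold change with its standard error for each phosphatase in the 3 comparisons, grouped by class, with Dusp8 and Dusp9 beside the 8 genes. Filled points passed at an adjusted p under 0.05 in edgeR's test. At 2 h the points of Dusp6 (-1.96) and Dusp7 (-0.90) lie below 0. Those of Dusp9 (0.62), of the same class, and of the JNK and p38 class lie above it.

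Levels of different genes were compared as CPM per kilobase of merged exons. In untreated cells Dusp6 was the most abundant transcript of the 8, at 21.2 ± 0.692 CPM per kilobase (SD, n = 3), followed by Dusp5 at 13.2 ± 1.65, Dusp1 at 11.8 ± 2.57 and Dusp4 at 10.4 ± 1.06, which overlapped neighbour by neighbour. Dusp7 at 7.27 and Dusp16 at 4.28 CPM per kilobase came next, each apart from its neighbours, and Dusp2 at 1.11 and Dusp10 at 0.977 CPM per kilobase overlapped at the bottom. After 2 h the order was Dusp1 at 39.6 ± 2.59, Dusp5 at 27.4 ± 1.43 and Dusp16 at 7.55 ± 0.948, and Dusp16, Dusp4 (6.73), Dusp6 (5.32), Dusp7 (3.86) and Dusp10 (3.18) then each overlapped the next. Dusp2 was lowest at 0.832 CPM per kilobase. After 6 h Dusp1 (28.1 ± 1.12) and Dusp5 (19.9 ± 0.689) still led, and Dusp6 (14.9 ± 2.46) came next and overlapped Dusp4 (11.0 ± 2.36). Dusp7, Dusp16, Dusp10 and Dusp2 followed, each apart from the next, at 7.02, 5.49, 3.49 and 0.843 CPM per kilobase.

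Summed over the 8 genes, the level was 70.3 ± 3.53 CPM per kilobase untreated, 94.5 ± 1.90 at 2 h and 90.7 ± 2.92 at 6 h (SD, n = 3 each). The make-up of this sum changed as well. The nuclear class held 50.1 to 54.9% of it in untreated libraries, 76.3 to 81.0% at 2 h and 65.2 to 66.4% at 6 h, and the cytoplasmic ERK class 37.6 to 42.5%, 6.13 to 13.4% and 22.8 to 26.2%. The JNK and p38 class held 7.41 to 7.54% untreated, 10.3 to 12.8% at 2 h and 8.59 to 10.8% at 6 h. Dusp8 and Dusp9, outside the 8, are in neither the sum nor these class shares. Dusp8 averaged 0.257 CPM per kilobase untreated and 2.01 at 2 h, and Dusp9 1.03 and 1.58. Within each library the level of Dusp1 per kilobase was 0.437, 0.706 and 0.538 times that of Dusp6 in untreated cells, 7.16, 4.66 and 17.4 times at 2 h and 1.52, 2.09 and 2.19 times at 6 h. The order of Dusp1 and Dusp6 was thus the same in all 3 untreated libraries and turned round in all 6 LPA libraries. These sums follow from the levels given above and were not tested.

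**Figure D3:**
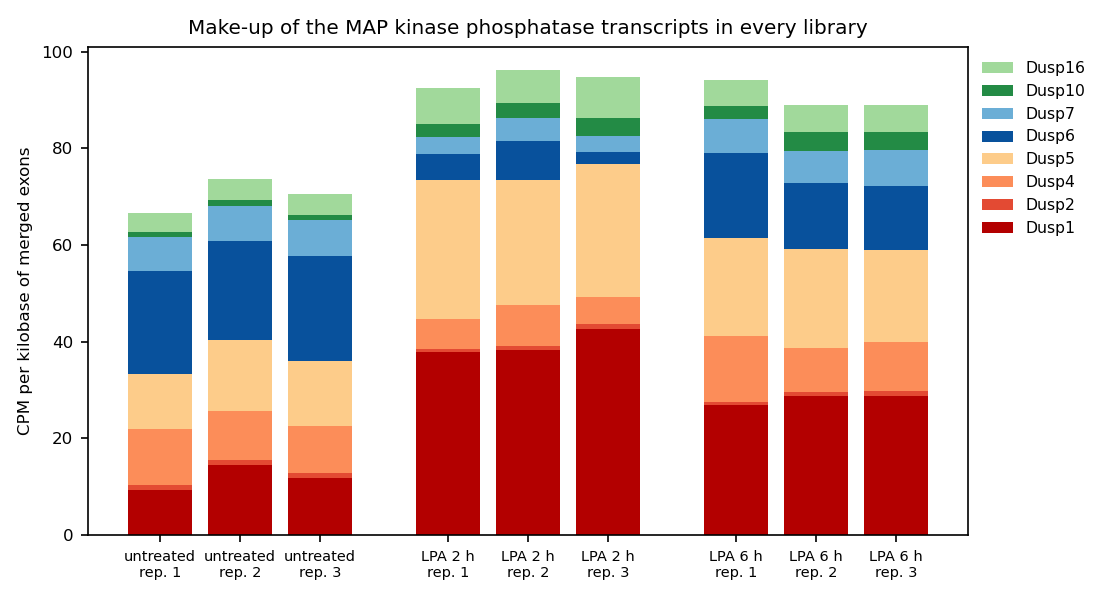
Stacked level of the 8 genes in each library, in CPM per kilobase of merged exons on a linear axis from 0. The blue segments (Dusp6 and Dusp7) take 37.6 to 42.5% of untreated columns and 6.13 to 13.4% of 2 h columns, while Dusp1 grows to 39.9 to 44.9% at 2 h.

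Genes with the profile most like each member were sought among 9329 other rows with an established symbol and a mean of at least 5 CPM, by Pearson's r of log2 CPM over the 9 libraries, as a description without a test. The 9 libraries fall into 3 groups, so r mostly reflects the group means. The nearest to Dusp1 was Nr4a2, an early-response nuclear receptor gene that is also in the list of CREB response genes (r = 0.993), at 3.40 ± 0.782 CPM untreated, 17.5 ± 3.16 CPM at 2 h and 10.5 ± 0.974 CPM at 6 h, and then Arhgap28 (0.988). Ttl (0.988) and Stx11 (0.986) were nearest to Dusp5, Fam110c (0.994) and Rbsn (0.988) to Dusp10, and Atad1 (0.992) and Rabgef1 (0.991) to Dusp16. The nearest to Dusp7 were Ncoa3 (0.992) and the amino acid transporter gene Slc36a1 (0.992), with Slc36a1 at 141 ± 3.55 CPM untreated, 81.5 ± 11.7 CPM at 2 h and 138 ± 2.56 CPM at 6 h. Adamts10 (0.989) and Dennd1c (0.985) were nearest to Dusp6, Ogfod1 (0.972) and Eno2 (0.971) to Dusp4, and Mtrr (0.948) was close to Dusp2.

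The atypical dual-specificity phosphatases, small relatives most of which do not act chiefly on MAP kinases, showed no common direction. The counts of this and the following lists stand against 19.3% of all rows called higher and 19.2% lower at 2 h, 26.4% and 25.7% at 6 h, and 24.3% and 24.4% at 6 h against 2 h. Of 15 listed, 11 were tested: 3 rose and 5 fell at 2 h, 4 rose and 3 fell at 6 h, and 5 were higher and 0 lower at 6 h against 2 h, with median log2 fold changes of -0.17, -0.09 and -0.03. Dusp14, at 1.96, 2.22 and 2.65 CPM at 2 h against 0.466, 0.544 and 0.378 CPM untreated, rose by 2.27 ± 0.21 at 2 h and 2.06 ± 0.21 at 6 h, and Dusp13 by 0.85 ± 0.13 and 1.58 ± 0.12. Dusp3, a phosphatase of ERK and JNK, fell by 0.22 ± 0.05 at 2 h. It was higher than in untreated cells at 6 h, by 0.15 ± 0.05, and higher than at 2 h by 0.37 ± 0.05.

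Transcripts of the kinases that these enzymes act on went both ways. Of 8 MAP kinase genes tested out of 13, 2 rose and 2 fell at 2 h, 1 rose and 2 fell at 6 h, and 1 was higher and 3 lower at 6 h against 2 h, with medians of -0.02, -0.004 and 0.03. Mapk8, which encodes JNK1, rose by 0.75 ± 0.10 at 2 h and was lower at 6 h than at 2 h (-0.63 ± 0.10). Mapk14, which encodes p38 alpha, fell by 0.17 ± 0.04 at 2 h and 0.21 ± 0.04 at 6 h, and the JNK2 gene Mapk9 fell by 0.35 ± 0.05 at 6 h. Among 6 MAP kinase kinase genes 2 rose and 0 fell at 2 h, 2 rose and 1 fell at 6 h, and 2 were higher and 2 lower at 6 h against 2 h (medians 0.05, 0.08 and 0.04). Map2k4, an activator of JNK, changed by 0.20 ± 0.04 at 2 h, Map2k5 by 0.17 ± 0.05 at 2 h and 0.46 ± 0.05 at 6 h, and Map2k3, an activator of p38, by 0.26 ± 0.05 at 6 h.

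Further up the cascade, 4 of 14 MAP3 kinase and related genes rose and 4 fell at 2 h, 4 rose and 3 fell at 6 h, and 4 were higher and 3 lower at 6 h against 2 h (medians 0.08, 0.04 and -0.07). Map3k2 rose by 0.44 ± 0.06 and 0.52 ± 0.06 at the successive times and Map3k1 fell by 0.26 ± 0.05 at 2 h. Map3k4 had -0.23 ± 0.07 at 2 h and 0.26 ± 0.07 at 6 h, and both passed. Of 9 kinases acting after MAP kinases, 1 rose and 3 fell at 2 h, 4 rose and 4 fell at 6 h, and 3 were higher and 2 lower at 6 h against 2 h (medians -0.11, -0.06 and -0.05). Rps6ka1, an ERK-activated ribosomal S6 kinase gene, fell by 0.47 ± 0.04 at both times, Mapkapk3 rose by 0.42 ± 0.04 and 0.36 ± 0.04, and Mapkapk2, a p38-activated kinase gene, fell by 0.57 ± 0.06 at 6 h. Mknk1 was higher at 6 h than at 2 h by 0.43 ± 0.06.

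Other brakes on the ERK pathway also went both ways. Of 9 tested Sprouty, Spred and related genes, 3 rose and 2 fell at 2 h, 2 rose and 1 fell at 6 h, and 4 were higher and 2 lower at 6 h against 2 h (medians -0.25, 0.22 and 0.05). Spred1 fell by 0.57 ± 0.08 and 0.52 ± 0.08, and Spred2 rose by 1.04 ± 0.10 and 0.40 ± 0.10, although both encode inhibitors of Ras to Raf signalling. Spry2, an ERK feedback inhibitor gene, had 2.29, 3.08 and 1.83 CPM at 2 h against 2.82, 3.64 and 3.05 CPM untreated (log2 -0.38 ± 0.19, not passed), and was higher at 6 h than at 2 h by 1.00 ± 0.18. MAP kinase phosphatases outside the family included 4 of 7 that rose and 1 that fell at 2 h, 2 and 1 at 6 h, and 1 higher and 4 lower at 6 h against 2 h (medians 0.32, 0.08 and -0.11). Ppp2ca, a catalytic subunit of protein phosphatase 2A, rose by 0.47 ± 0.05 at 2 h, Ppm1a by 0.38 ± 0.04 at 2 h and 0.26 ± 0.04 at 6 h, Ppm1l by 0.60 ± 0.14 at 6 h, and the tyrosine phosphatase gene Ptpn7 fell by 0.52 ± 0.06 at 2 h.

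Transcripts that commonly follow ERK activity went both ways. Of 14 tested, 4 rose and 5 fell at 2 h, 3 rose and 8 fell at 6 h, and 3 were higher and 6 lower at 6 h against 2 h (medians -0.42, -0.58 and -0.26). Ier3 rose by 0.93 ± 0.07 and 0.74 ± 0.07. The Ets factor gene Etv5 fell by 0.80 ± 0.09 and 0.82 ± 0.09, and Ccnd1, which encodes cyclin D1, by 1.16 ± 0.12 and 2.47 ± 0.14. Epha4 had 1.10 ± 0.21 at 2 h and -1.16 ± 0.24 at 6 h, both passing. At 6 h against 2 h Etv5 had -0.02 ± 0.09, which did not pass.

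CREB response genes, which commonly follow cAMP signalling, moved mostly in the same direction: 12 of 13 rose and 0 fell at 2 h, 12 rose and 0 fell at 6 h, and 1 was higher and 11 lower at 6 h against 2 h, with medians of 1.76, 1.10 and -0.75. Over all rows 19.3% were called higher at 2 h and 26.4% at 6 h, and 24.4% lower at 6 h against 2 h. The exceptions were Crtc2 at 2 h (-0.003) and Nr4a3 at 6 h (-0.04), neither of which passed. The list was chosen with earlier results of these libraries known, so its direction is not independent evidence. Per1 rose by 1.39 ± 0.08 and 0.63 ± 0.08, Sik1 by 1.84 ± 0.10 and 1.10 ± 0.10, Crem by 2.75 ± 0.12 and 1.73 ± 0.12, Pde4d by 1.18 ± 0.08 and 1.16 ± 0.08, and the CREB coactivator gene Crtc3 by 0.91 ± 0.07 and 0.38 ± 0.07. Of 6 glucocorticoid response genes 4 rose and 1 fell at 2 h and at 6 h, and 1 was higher and 2 lower at 6 h against 2 h (medians 0.28, 0.45 and -0.03). Sgk1 rose by 0.74 ± 0.05 and 0.61 ± 0.05, Ddit4 by 2.62 ± 0.15 and 1.61 ± 0.15, and Tsc22d3 was higher at 6 h than at 2 h by 0.79 ± 0.11.

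AU-rich mRNA decay limits short-lived transcripts such as Dusp1. Of 6 genes linked to it, 2 rose and 3 fell at 2 h, and 2 rose and 2 fell at 6 h. At 6 h against 2 h, 2 were higher and 2 lower (medians of the comparisons -0.08, 0.003 and 0.01). The genes were not split by whether they promote or oppose decay, and Elavl1 is counted among those that fell (-0.19 at 2 h, -0.16 at 6 h). Zfp36, whose protein tristetraprolin is held inactive by p38 signalling, rose by 0.43 ± 0.06 at 2 h, Zfp36l1 fell by 0.30 ± 0.04 at 2 h, and Zfp36l2 rose by 0.39 ± 0.08 at 6 h. Hnrnpd fell by 0.47 ± 0.06 at 6 h, and Khsrp was higher at 6 h than at 2 h by 0.39 ± 0.05. All calls on these lists are from the edgeR fit over all rows described above, and transcript levels do not show the amount or activity of the enzymes.

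**Figure D4:**
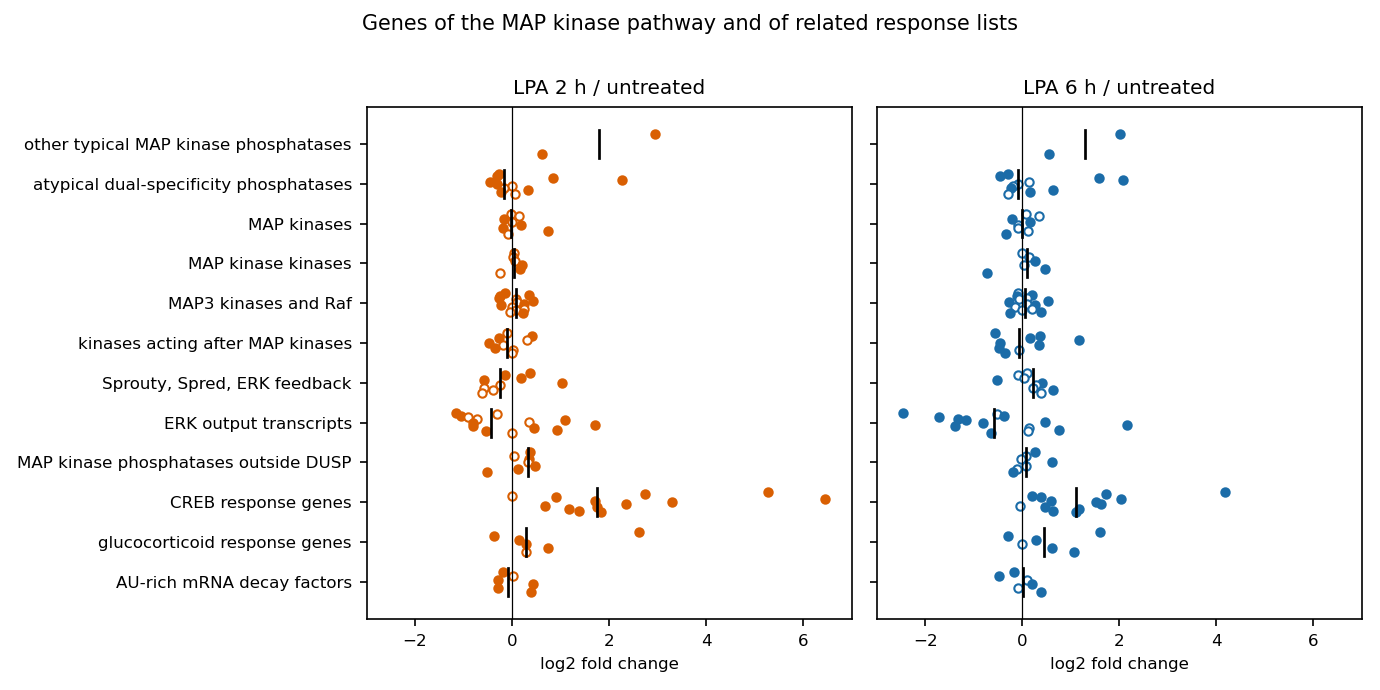
Log2 fold change of each tested gene of the lists, at 2 h (left) and 6 h (right) against untreated, 1 row per list with the list median as a black bar. Filled points passed at an adjusted p under 0.05. Most CREB response genes lie to the right, 12 of 13 passing as higher at each time, with medians of 1.76 and 1.10, and the other lists with more than 2 genes have medians between -0.58 and 0.45.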

How the data were processed

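RNA was measured in 9 libraries, 3 per group. Per the labels' protocols, TruSeq mRNA libraries that keep no strand were sequenced, and the submitters' processing notes name mm10, RSEM 1.2.3 and DESeq2. An aligner or annotation release was not given in the sources used here. The authors deposited expected counts per gene from RSEM as whole numbers, not scaled for depth. RSEM divides reads that fit several transcripts among them.

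Transcript identifiers were matched to GENCODE M21 (GRCm38, the assembly mm10 names): 37776 rows matched 1 gene, with 98.46% of counts. Levels per length used the merged exons of a row's transcripts. Rows were filtered with filterByExpr (minimum count 10, total 15), leaving 14363. Libraries were scaled by TMM (0.974 to 1.03), and all 9 were fitted with edgeR 4.0.16 (glmQLFit, robust, R 4.3.3), with 1 mean per group. SE is the log2 fold change over the square root of F. Counts of replicates differed beyond sampling noise (chi-square per degree of freedom 7.05 to 31.1). Deviations of same-numbered libraries correlated at 0.144 to 0.178 for 6 h and untreated, over 0.1 in all pairs. They correlated at 0.0904 to 0.184 for 2 h and untreated, and at 0.0347 to 0.128 for 6 h and 2 h. Without values for libraries of different number, these correlations cannot show that the numbers pair the libraries. The members and lists were chosen with earlier results of these data known. Named genes were the 8 members, Dusp8, Dusp9, the 2 called genes of smallest p per list and comparison, and the 2 most similar profiles per member. Alternatives were other scalings (DESeq2 size factors, totals, upper quartile), DESeq2 1.42.0, limma-voom (limma 3.58.1), other filters, the replicate number as a block, 6 libraries only, each library left out, and rows of a symbol summed. Some genes that this rule names are not reported here. A protein comparison was planned but not made, as no protein table was used here.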

Additional observations from a re-analysis of the deposited data

Results flagged for a closer look

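For 6 of the 8 phosphatases the level at 6 h of LPA differed from that at 2 h (edgeR, adjusted p from 1.14e-04 to 0.0210). In this direct test of 6 h against 2 h the untreated mean cancels, but the untreated libraries still enter the spread of the fit. Over all rows 48.7% were called in this comparison. The calls of Dusp1, Dusp4 and Dusp6 were each lost under some alternatives (adjusted p up to 0.0602, 0.0657 and 0.0636, edgeR). Those of Dusp5, Dusp7 and Dusp16 were kept in all. The labels give no time point for untreated cells, so a part of time in culture was not tested. On the log2 scale the difference was 1.44 for Dusp6, 0.85 for Dusp7 and 0.69 for Dusp4, which were higher at 6 h, and -0.49 for Dusp1, -0.46 for Dusp5 and -0.45 for Dusp16, which were lower.

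Other named genes differed in the same way, but they were named partly for a small p in this very comparison, so their number carries no weight. Lower at 6 h than at 2 h were Dusp8 (-0.93), the CREB response genes Crem (-1.02), Per1 (-0.75), Sik1 (-0.74) and Crtc3 (-0.53), the genes Epha4 (-2.26), Ccnd1 (-1.30) and Ier3 (-0.18), and Ddit4 (-1.02), Hnrnpd (-0.50) and Zfp36 (-0.24). So were the kinase genes Mapk8 (-0.63), Mapkapk2 (-0.46), Mapk9 (-0.27) and Map2k4 (-0.17), and Spred2 (-0.64), Ppp2ca (-0.39) and Ppm1a (-0.11). Higher at 6 h were Spry2 (1.00), Tsc22d3 (0.79), Dusp13 (0.73), Dusp3 (0.37), Khsrp (0.39), Ptpn7 (0.33) and Zfp36l1 (0.21), and the kinase genes Map3k4 (0.50), Mknk1 (0.43), Map2k5 (0.29), Map2k3 (0.19) and Map3k1 (0.14).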

How the results depend on the processing

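Of 384 recalculated fold changes of the 8 genes (24 results under 16 alternatives each), 364 kept their direction and their side of the threshold, 12 lost the call, 5 gained it and 3 changed sign, and the cause was not tested. All 16 alternatives left the calls of Dusp5, Dusp7, Dusp10 and Dusp16 as they were in the 3 comparisons. Without a filter the calls of Dusp4 at 2 h (-0.61) and of Dusp1 at 6 h against 2 h (-0.49) were lost. Limma-voom called Dusp2 at 2 h (-0.45). With the replicate number as a block Dusp2 was called at 2 h (-0.43) and at 6 h (-0.40), which made 1 of the 8 lower at 6 h, and the block changed no other call. With only the 6 libraries compared, Dusp6 was called at 6 h (-0.53), again 1 lower, and lost at 6 h against 2 h (1.45).

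With each library left out in turn, values ran from -0.81 to -0.52 for Dusp4 and from -0.58 to -0.28 for Dusp2 at 2 h, and from -0.12 to 0.18 for Dusp4 at 6 h, negative without 6 h replicate 1 (-0.118). At 6 h against 2 h they ran from 0.50 to 0.87 for Dusp4, from 1.11 to 1.91 for Dusp6, from -0.53 to -0.44 for Dusp1 and from -0.09 to 0.20 for Dusp2, negative without 2 h replicate 1 (-0.0926) or 6 h replicate 3 (-0.0665). The number of the 8 called higher there ran from 1, without 2 h replicate 1, to 3. Dusp2 rests on 42 to 154 counts per library, the fewest of the 8.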
